A study of Mus musculus with 12 samples.

Results

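Transcripts of the myeloid factor PU.1, encoded by Spi1, and of 9 other ETS transcription factors were followed in mouse AML246 leukemia cells before doxycycline (Dox) and after 2, 4 and 6 days of Dox. The 10 genes are Spi1, Fli1, Ets1, Ets2, Elf1, Elf2, Elf4, Etv6, Gabpa and Elk3. They were listed by name, with earlier results of these data known, and were found through the Entrez identifiers of the count tables. They are 10 of the 27 ETS genes looked up and 10 of 27179 genes in each table. All 10 had enough counts for testing, as did 12057 genes in all.

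ETS factors share a winged-helix DNA-binding domain that reads a GGAA core, so different members can occupy overlapping sets of sites. PU.1 is a master regulator of the myeloid lineage whose dose matters, since low levels favour immature cells and high levels favour macrophages. Other members act in the same blood cells as activators downstream of MAP kinases (ETS1, ETS2), as stem cell and megakaryocyte factors (FLI1, ERG), as repressors (ETV6, and ELK3 until it is phosphorylated) or as regulators of housekeeping and mitochondrial genes (GABPA).

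All samples are AML246, a p53-/- shPU.1 acute myeloid leukemia on the C57BL/6 strain, sorted by GFP from the bone marrow of a leukemic recipient. Dox shuts down the hairpin against PU.1 and the GFP linked to it, so endogenous PU.1 returns over days. The groups hold 3 libraries each and are untreated (gate GFPhigh), Dox day 2 (GFPhigh-mid), Dox day 4 (GFPmid) and Dox day 6 (GFPlow). The p53 deletion, the hairpin cassette and the leukemic host are common to all groups. AML246 is a single leukemia, and the promoter that drives the hairpin is not given in the sources used here. Because the gate moves with the time on Dox, and no Dox-treated cells without the hairpin are analysed here, time, gate and Dox itself cannot be told apart. The sample titles call the replicates technical whereas the series design speaks of triplicate mice, so p-values measure only how far these samples differ from each other, and that variation may be technical.

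Libraries held 4918920 to 7356166 counts, at which 3 counts correspond to 0.408 to 0.610 CPM, the count scaled to library size, a floor for counting error only. Levels below are CPM after TMM scaling, as mean ± SD of 3 libraries, or CPM per kilobase of exon length (RPKM) where genes are compared with each other. Day 6 replicate 2 stood apart, because the variance of its counts against the other day 6 libraries was 44.3 and 38.6 times that of counting error. All other replicate pairs had 2.62 to 10.5 times counting error. The 8 blast markers (among them Mpo, Elane and Kit) were all detected in every group, and their sum was 28965 to 32913 CPM in untreated libraries, 22688 to 23566 CPM at day 2, 12453 to 19124 CPM at day 4 and 7710 to 9752 CPM at day 6. The 8 neutrophil markers (among them Ngp, Camp and Ltf) summed to 386 to 989.9 CPM untreated, 381 to 914 CPM at day 2, 981 to 2123 CPM at day 4 and 33380 to 70588 CPM at day 6, lowest in day 6 replicate 2. The 8 monocyte and macrophage markers summed to 3532 to 4741 CPM untreated, 3646 to 4752 CPM at day 2, 6248 to 6392 CPM at day 4 and 2713 to 4525 CPM at day 6. Ly6c2 alone gave 3413 to 4548 CPM of this sum untreated, 4022 to 4746 CPM at day 4 and 1781 to 2225 CPM at day 6. The fall of the sum at day 6 was thus that of Ly6c2, while the other markers of this list together were higher at days 4 and 6 than untreated. In bulk RNA, fewer cells of a type and less RNA per cell cannot be told apart, so each level below is that of the sorted population.

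The ETS genes did not move as a block. Spi1 and Elf4 rose over the days, Etv6 fell, and Fli1, Ets1 and Ets2 lay high only in the day 6 libraries. With TMM scaling, Gabpa and Elf2 were higher at day 6 by smaller amounts, Elk3 was higher at day 4, and Elf1 passed no test. At day 2 against untreated, 1 of the 10 was called higher (Spi1) and 1 lower (Etv6) by edgeR's quasi-likelihood test, at an adjusted p under 0.05, where 1.05% of all tested genes were called higher and 0.406% lower. At day 4 against untreated, 3 were called higher (Spi1, Elf4, Elk3) and 2 lower (Etv6, Ets2), against 22.1% and 20.2% of all genes. At day 6 against untreated, 7 were called higher (Spi1, Fli1, Ets1, Ets2, Elf2, Elf4, Gabpa) and 1 lower (Etv6), against 35% and 32.9% of all genes.

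Between neighbouring times, day 4 against day 2 had 2 members called higher (Spi1, Elf4) and 0 lower, where 15% of all genes were called higher and 10.2% lower. Day 6 against day 4 had 7 called higher (Spi1, Fli1, Ets1, Ets2, Elf2, Elf4, Gabpa) and 0 lower, where 23.6% and 22.6% of all genes were called. DESeq2 and limma voom also called 0 lower in both steps, while at an unadjusted p under 0.05 in edgeR 2 were lower in the first step and 1 in the second. Upper-quartile scaling gave 2 and 1 lower calls in these steps, and scaling by library totals 2 and 3. The median log2 fold change of the 10 genes was 0.01 at day 2, -0.01 at day 4 and 0.54 at day 6 against untreated, beside -0.0038, -0.015 and -0.00029 over all tested genes. A test of any change over the 4 groups called 7 of the 10, where 68.7% of all genes were called. Elf1, Elf2 and Elk3 were the members it did not call, with quasi-likelihood adjusted p of 0.492, 0.0529 and 0.0793. All comparisons with untreated share the same 3 untreated libraries.

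**Figure D1:**
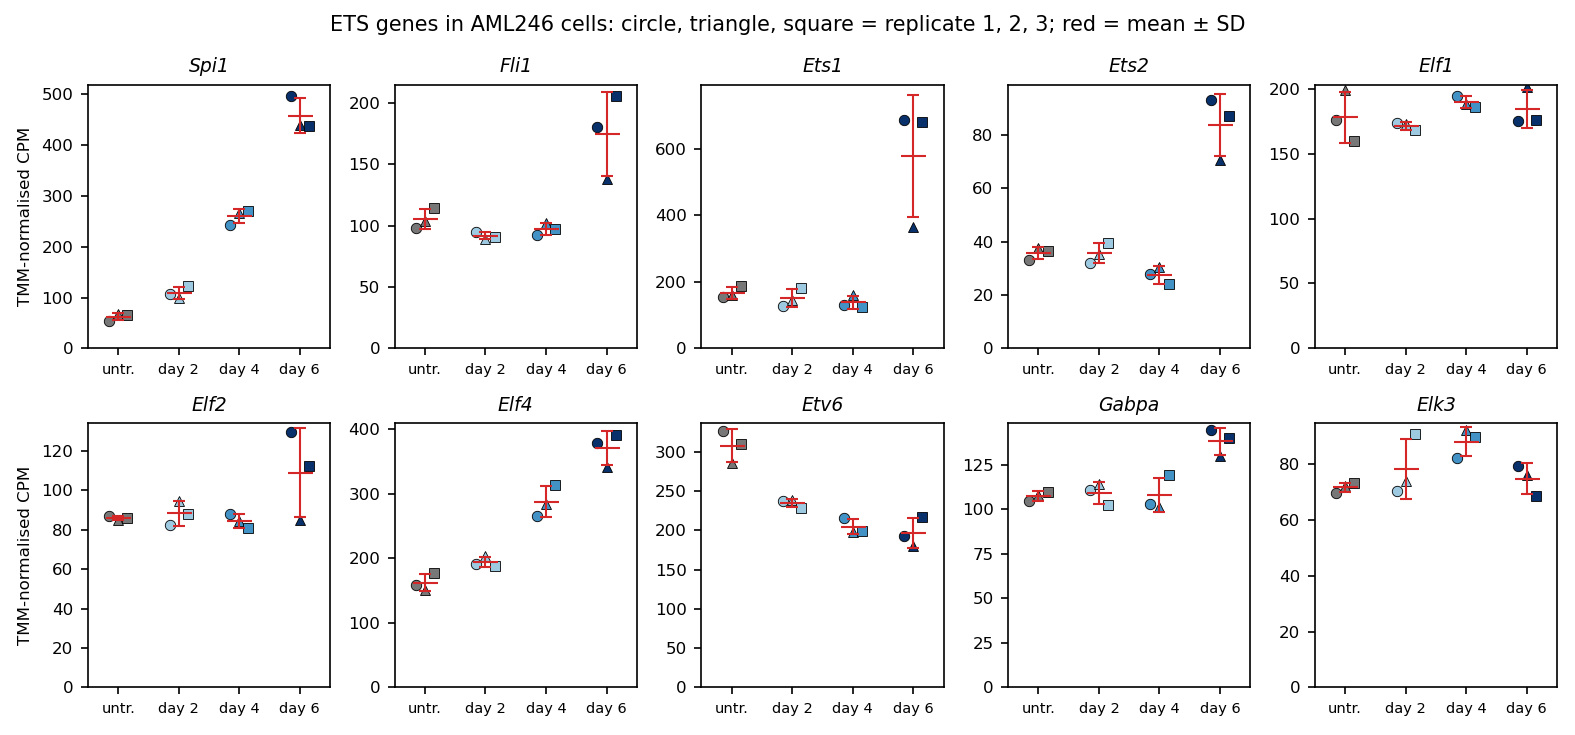
Level of each of the 10 ETS genes in TMM-normalised CPM (linear axis starting at 0) in the 12 libraries, by time on Dox, with the mean ± SD of each group in red. Spi1 climbs at every time, Elf4 climbs more slowly, Etv6 declines, and Fli1, Ets1 and Ets2 are high in the day 6 libraries, with replicate 2 the lowest of the 3.

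Spi1 (ID 20375, GRCm38 chr2:91082374-91115759) rose at each time. The untreated libraries had 54.2, 67.5 and 65.9 CPM, the day 2 libraries 107, 98.8 and 123 CPM, the day 4 libraries 244, 267 and 269 CPM, and the day 6 libraries 497, 439 and 438 CPM. Every library of a time lay above every library of the time before. The means were 62.5 ± 7.29, 109.6 ± 12.01, 260.1 ± 14.1 and 458 ± 33.9 CPM. On the log2 scale the steps were 0.81 ± 0.11 for day 2 against untreated, 1.25 ± 0.11 for day 4 against day 2 and 0.82 ± 0.11 for day 6 against day 4 (SE). Their quasi-likelihood adjusted p were 0.00390, 1.53e-05 and 8.61e-05, and differences between steps were not tested. The last step was 0.41 under library totals and still called (adjusted p = 0.00371). The total change at day 6 was 2.87 with a 95% interval of 2.62 to 3.12. Leaving out any single library kept the Spi1 calls in all 5 comparisons, and the day 6 value was 2.90 without day 6 replicate 2. A 1.5-fold threshold test did not call the day 2 rise (adjusted p = 0.921).

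Elf4 (ID 56501, chrX:48411049-48463132), also known as MEF, an activator studied in natural killer cells and in blood stem cell quiescence, rose more slowly. It had 159, 150.3 and 177 CPM untreated, 191, 203 and 188 CPM at day 2, 265, 284 and 313 CPM at day 4 and 379, 342 and 391 CPM at day 6. The day 2 libraries all lay above the untreated ones, yet the day 2 change of 0.26 ± 0.09 on the log2 scale did not pass (quasi-likelihood adjusted p = 0.225). The changes at day 4 (0.83 ± 0.09, adjusted p = 2.73e-05) and day 6 (1.19 ± 0.09, adjusted p = 3.50e-07) against untreated passed, and so did day 4 against day 2 (0.57 ± 0.09, adjusted p = 0.00102). At day 6 Elf4 stood at 371 ± 25.6 CPM against 162 ± 13.6 CPM untreated, 2.29-fold higher. Elf4 and Spi1 were the 2 members called higher both at day 4 against day 2 and at day 6 against day 4. The second of these steps for Elf4 (0.37 ± 0.09, adjusted p = 0.00666) depended on scaling, with 0.21 under upper-quartile factors and -0.04 under library totals.

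Etv6 (ID 14011, chr6:134035700-134270158), the repressor TEL that blood stem cells of the marrow need and that leukemias often carry in gene fusions, fell at day 2 and stayed below untreated. Its libraries had 327, 286 and 310.3 CPM untreated, 237, 238 and 228 CPM at day 2, 215, 198 and 199.6 CPM at day 4 and 193, 179.9 and 217 CPM at day 6. All day 2, day 4 and day 6 libraries lay below all untreated ones, while the day 6 libraries overlapped those of day 4. The log2 changes against untreated were -0.39 ± 0.09 at day 2 (quasi-likelihood adjusted p = 0.0483), -0.59 ± 0.09 at day 4 (adjusted p = 2.13e-04) and -0.65 ± 0.09 at day 6 (adjusted p = 3.29e-05). The day 2 call was narrow. It was lost in 10 of 12 omissions of a single library (adjusted p of 0.0515 to 0.202), that is without any untreated, day 2 or day 4 library or without day 6 replicate 1, while its size stayed between -0.44 and -0.35. The day 4 and day 6 calls held in all 12 omissions. For day 4 against day 2 all day 4 libraries lay below all day 2 libraries, with a log2 change of -0.20 (95% interval -0.39 to -0.0069) that was not called (unadjusted p = 0.0433, adjusted p = 0.121). For day 6 against day 4 the Etv6 change was -0.06 with a 95% interval of -0.25 to 0.13.

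Fli1, Ets1 and Ets2 showed no rise up to day 4 and were higher at day 6. Ets1 (ID 23871, chr9:32636241-32757820), a factor of lymphocyte and natural killer cell development, changed most. It had 153, 160.2 and 187 CPM untreated, 128, 146 and 182 CPM at day 2, 132, 162 and 124 CPM at day 4 and 688, 367 and 680.2 CPM at day 6. The groups up to day 4 overlapped, and each day 6 library lay above all 9 others, with replicate 2 far below the other 2 of that day. At day 6 it was 3.46-fold the untreated level, with a log2 change of 1.79 ± 0.22 (quasi-likelihood adjusted p = 2.32e-05), or 2.03 without day 6 replicate 2. From day 4 the change was 2.05 ± 0.23 (adjusted p = 3.73e-05), or 2.30 without it.

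Fli1 (ID 14247, chr9:32422204-32543432), the neighbour of Ets1 on chromosome 9 and a factor of megakaryocytes and blood stem cells, had 98.4, 104 and 114 CPM untreated. It had 94.9, 89.5 and 90.8 CPM at day 2, 92.3, 102 and 97.8 CPM at day 4 and 180.4, 138 and 206 CPM at day 6. The day 2 libraries lay below the untreated ones without passing the test (log2 -0.20 ± 0.12, adjusted p = 0.494), and the day 6 libraries lay above all others. Fli1 was 1.65-fold the untreated level at day 6 (log2 0.72 ± 0.12, quasi-likelihood adjusted p = 2.02e-04), and 0.87 on the log2 scale without day 6 replicate 2.

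Ets2 (ID 23872, chr16:95702407-95721049), the closest relative of Ets1 and a nuclear target of MAP kinases, dipped before it rose. Its libraries had 33.3, 37.6 and 36.3 CPM untreated, 32.0, 35.5 and 39.6 CPM at day 2, 27.8, 30.6 and 24.2 CPM at day 4 and 93.2, 70.7 and 87.3 CPM at day 6. All day 4 libraries lay below, and all day 6 libraries above, those of every other time. The day 4 fall was -0.38 ± 0.13 on the log2 scale (quasi-likelihood adjusted p = 0.0336), and it was not called without untreated replicate 2 or 3 or without day 4 replicate 1 or 3 (adjusted p of 0.0693 to 0.137). The day 6 rise against untreated was 1.22 ± 0.13 (adjusted p = 3.10e-06), and that from day 4 was 1.60 ± 0.13 (adjusted p = 3.55e-06). Both were larger without day 6 replicate 2, at 1.33 and 1.71.

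Summed markers of several cell types also differed among the day 6 libraries, in different directions. The neutrophil sum was 70588, 33380 and 60322 CPM in day 6 replicates 1, 2 and 3. It was lowest in replicate 2, the library lowest in Ets1, Fli1 and Ets2. The monocyte and macrophage sum was 2713, 4525 and 2713 CPM in these libraries, highest in replicate 2. Ly6c2 gave 1902, 2225 and 1781 CPM of it. The 6 NK cell markers, led by Gzma, summed to 23.0, 1.29 and 34.9 CPM in these libraries, against 3.55 to 5.75 CPM untreated, and Klra8 was at 0 at day 6. The 8 T cell markers summed to 3.63, 50.6 and 2.73 CPM, against 0.718 to 2.23 CPM untreated. These markers were highest in replicate 2, the library lowest in Ets1. The 8 megakaryocyte markers summed to 114, 59.3 and 112 CPM, against 18.2 to 23.8 CPM untreated, and Itgb3 alone gave 107, 54.3 and 108 CPM of it. The 8 endothelial markers, mostly Pecam1, summed to 14.6 to 22.0 CPM at day 6 and 52.7 to 87.1 CPM untreated, with Tek, Esam, Emcn and Robo4 at 0 at day 6. The 8 stromal markers, mostly Pdgfrb, summed to 9.37 to 14.6 CPM at day 6 and 176 to 285 CPM untreated. The 8 B cell markers stayed at 3.05 to 9.36 CPM and the 7 erythroid ones at 1.32 to 6.40 CPM in all libraries. The part of these cells in the day 6 levels of the ETS genes was not tested.

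Gabpa and Elf2 had nearly the same profile, flat to day 4 and slightly higher at day 6. Gabpa (ID 14390, chr16:84834891-84863783), the DNA-binding subunit of GABP, had 104, 108 and 109.6 CPM untreated, 111, 114 and 102 CPM at day 2, 103, 101 and 119 CPM at day 4 and 145, 129.9 and 140.0 CPM at day 6. Its day 6 libraries all lay above the 9 others, and the log2 change was 0.36 ± 0.09 (quasi-likelihood adjusted p = 0.00222). Elf2 (ID 69257, chr3:51252720-51340683), an ELF1-related factor also called NERF, had 86.8, 85.1 and 85.8 CPM untreated, 82.2, 94.6 and 88.0 CPM at day 2, 87.8, 84.3 and 80.9 CPM at day 4 and 129, 85.03 and 112 CPM at day 6. Its day 6 replicate 2 fell within the untreated range. The Elf2 change of 0.34 ± 0.12 passed (adjusted p = 0.0272) but was lost without any of the untreated libraries or without day 6 replicate 1 or 3 (adjusted p of 0.0581 to 0.146), and it was 0.49 without day 6 replicate 2.

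Elk3 and Elf1 were not called at day 6 under TMM scaling, though both were called lower there under library totals. Elk3 (ID 13713, chr10:93247415-93311159), a ternary complex factor that works with SRF and is also called Net, had 69.8, 72.0 and 73.1 CPM untreated, 70.3, 73.8 and 90.6 CPM at day 2, 82.1, 92.1 and 89.7 CPM at day 4 and 79.3, 76.2 and 68.5 CPM at day 6. Only at day 4 did its libraries lie clear of the untreated ones, with a log2 change of 0.30 ± 0.10 (quasi-likelihood adjusted p = 0.0320). That call was lost without any 1 of the untreated libraries or without day 4 replicate 2 or 3 (adjusted p of 0.0568 to 0.0957), under upper-quartile factors (0.20, adjusted p = 0.125) and under library totals (0.18, adjusted p = 0.202). Elf1 (ID 13709, chr14:79481174-79582491), an activator in T cells, endothelium and blood progenitors, had 176, 199 and 159 CPM untreated, 173, 173 and 168 CPM at day 2, 194, 189 and 186 CPM at day 4 and 175, 201 and 176 CPM at day 6. The libraries of each day overlapped the untreated ones. Its log2 change at day 6 was 0.05, with a 95% interval of -0.15 to 0.25, and between -0.05 and 0.09 at the earlier days.

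**Figure D2:**
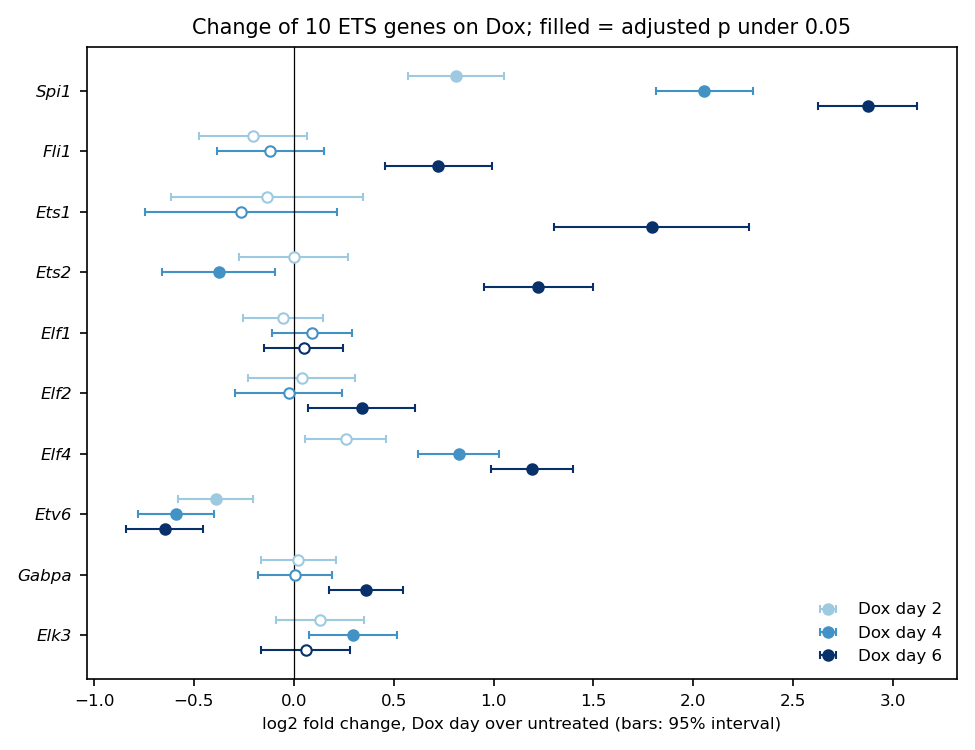
log2 fold change of each ETS gene at Dox day 2, 4 and 6 over untreated, with 95% intervals, filled where the edgeR quasi-likelihood adjusted p was under 0.05. The Spi1 intervals move right at each day up to 2.87, those of Etv6 lie left of 0 at all 3 days, and those of Elf1 include 0 at all 3.

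Some members share exons with genes on the opposite strand, and whether the counting used strand is not given in the sources used here, so reads from the shared stretches cannot be assigned. Elf1 and Wbp4 start 74 bases apart and share 327 exon bases (4.85% of the Elf1 exons in GENCODE), Gabpa and Atp5j start 148 bases apart and share 397 (6.98%), and Elk3 and Cdk17 share 316 at their 3' ends (6.95%). Wbp4 rose at day 6 (log2 0.56, quasi-likelihood adjusted p = 5.67e-05) where Elf1 had 0.05. Atp5j had 0.08 at day 6 (adjusted p = 0.503) where Gabpa rose by 0.36. Cdk17 rose at day 6 (0.76, adjusted p = 3.18e-05) and had -0.09 at day 4 (adjusted p = 0.511), the time at which Elk3 was called.

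The promoters of members with different courses are shown to let their letters be compared. RefSeq promoter windows on GRCm38.p6, 250 bases before to 50 bases after a gene start, covered 7 of the 10 members, with 10 windows in all, as Elf1, Elf2 and Elf4 have 2 each. Spi1, Fli1 and Ets1 had no window, so their promoters were not searched. Capitals mark matches, on either strand, to GAGGAAGT, a core bound by PU.1, or to CCGGAAG, a core bound by ETS1, ELF and GABP proteins. Both motifs contain GGAAG, but the letters before it differ, so 1 GGAAG belongs to at most 1 of them on a strand.
The Gabpa window (chr16:84834874-84835173, plus strand), from a member higher at day 6, holds GAGGAAGT 113 to 106 bases before the start and CCGGAAG on the minus strand 93 to 87 bases before it.
Gabpa promoter: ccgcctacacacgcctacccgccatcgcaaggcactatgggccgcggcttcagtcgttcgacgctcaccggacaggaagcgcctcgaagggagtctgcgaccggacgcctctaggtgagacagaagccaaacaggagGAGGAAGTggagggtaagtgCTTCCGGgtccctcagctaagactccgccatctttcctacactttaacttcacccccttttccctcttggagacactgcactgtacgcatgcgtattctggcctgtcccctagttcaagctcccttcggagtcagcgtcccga
1 of the 3 Elk4 windows (chr1:132007370-132007669, plus strand), from an ETS gene outside the 10, has both matches too, and the other 2 have none.
Elk4 promoter: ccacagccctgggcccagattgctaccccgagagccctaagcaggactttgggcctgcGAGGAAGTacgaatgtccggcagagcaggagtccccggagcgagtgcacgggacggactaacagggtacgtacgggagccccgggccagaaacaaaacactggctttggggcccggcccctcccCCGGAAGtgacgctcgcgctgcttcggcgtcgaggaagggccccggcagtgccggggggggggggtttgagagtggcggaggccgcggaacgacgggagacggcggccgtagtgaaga
The first of the 2 Elf4 windows (chrX:48463083-48463382, minus strand), from a member that, like Spi1, was called higher at days 4 and 6, has no match, and nor has the other.
Elf4 promoter: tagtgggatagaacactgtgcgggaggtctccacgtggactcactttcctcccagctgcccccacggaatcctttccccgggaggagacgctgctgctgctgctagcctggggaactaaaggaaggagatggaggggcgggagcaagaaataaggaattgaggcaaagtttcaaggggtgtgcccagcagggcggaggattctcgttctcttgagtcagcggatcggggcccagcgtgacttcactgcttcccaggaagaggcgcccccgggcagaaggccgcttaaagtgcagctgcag
The Etv6 window (chr6:134035450-134035749, plus strand), from the member that fell, has no match.
Etv6 promoter: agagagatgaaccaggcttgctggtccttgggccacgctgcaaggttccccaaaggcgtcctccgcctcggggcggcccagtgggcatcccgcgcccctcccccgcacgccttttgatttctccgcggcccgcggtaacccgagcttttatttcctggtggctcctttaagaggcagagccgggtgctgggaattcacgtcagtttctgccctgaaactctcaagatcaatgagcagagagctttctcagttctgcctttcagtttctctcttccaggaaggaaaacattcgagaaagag
The first of the 2 Elf2 windows (chr3:51340595-51340894, minus strand), from the member whose course was nearest to that of Gabpa, has no match, and nor has the other.
Elf2 promoter: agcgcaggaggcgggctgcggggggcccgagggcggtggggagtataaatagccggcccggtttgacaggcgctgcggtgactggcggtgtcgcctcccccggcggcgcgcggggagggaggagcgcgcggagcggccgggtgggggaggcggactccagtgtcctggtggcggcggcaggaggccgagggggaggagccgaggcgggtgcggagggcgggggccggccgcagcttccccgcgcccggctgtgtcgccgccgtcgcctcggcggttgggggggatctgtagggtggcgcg
Of 32851 windows of all genes, 3.20% held GAGGAAGT and 8.86% held CCGGAAG. Gabpa was the 1 member among the 7 with a window that held either. Of the 22 ETS genes with a window, 3 held GAGGAAGT (Gabpa, Elk4, Etv3l) and 2 held CCGGAAG (Gabpa, Elk4). These 22 genes have 32 windows, so counts of genes do not compare directly with the shares of all windows. The share of G and C was 78.7% in the Elf2 window shown and 67% in the other, 60.0% in the Elf4 window shown and 75.3% in the other, 59.3% in that of Gabpa and 57.3% in that of Etv6, beside a median of 52.7% over all windows. A match describes letters only, and a missing match says no more than that these letters are not in this window.

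The size of the day 6 changes depended on how libraries were scaled. The TMM factors were 1.02 to 1.15 up to day 4 but 0.737, 0.847 and 0.749 at day 6. Against TMM, upper-quartile factors moved the median log2 change of all genes at day 6 by -0.25 and library totals by -0.52. The share of day 6 calls that were higher was 51.6% under TMM, 37.3% under upper-quartile and 25.2% under library-total scaling. At day 4 it was 52.2%, 41.2% and 39.1%, for day 4 against day 2 59.6%, 43.8% and 35.1%, and for day 6 against day 4 51.1%, 34.6% and 17.5%. Spi1 (2.87, 2.62 and 2.36), Ets1 (1.79, 1.54 and 1.25), Ets2 (1.22, 0.97 and 0.70) and Elf4 (1.19, 0.94 and 0.67) were called higher at day 6 under all 3, and Etv6 (-0.65, -0.90 and -1.17) lower. Fli1 had 0.72, 0.47 and 0.20, and the last of these was not called (quasi-likelihood adjusted p = 0.0906). Gabpa (0.36, 0.11 and -0.16) and Elf2 (0.34, 0.09 and -0.19) changed sign under library totals, and Elf1 (0.05, -0.20 and -0.46) and Elk3 (0.06, -0.19 and -0.45) under both. With library totals Elf1 and Elk3 were called lower at day 6, with adjusted p of 0.00215 and 0.00258.

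**Figure D3:**
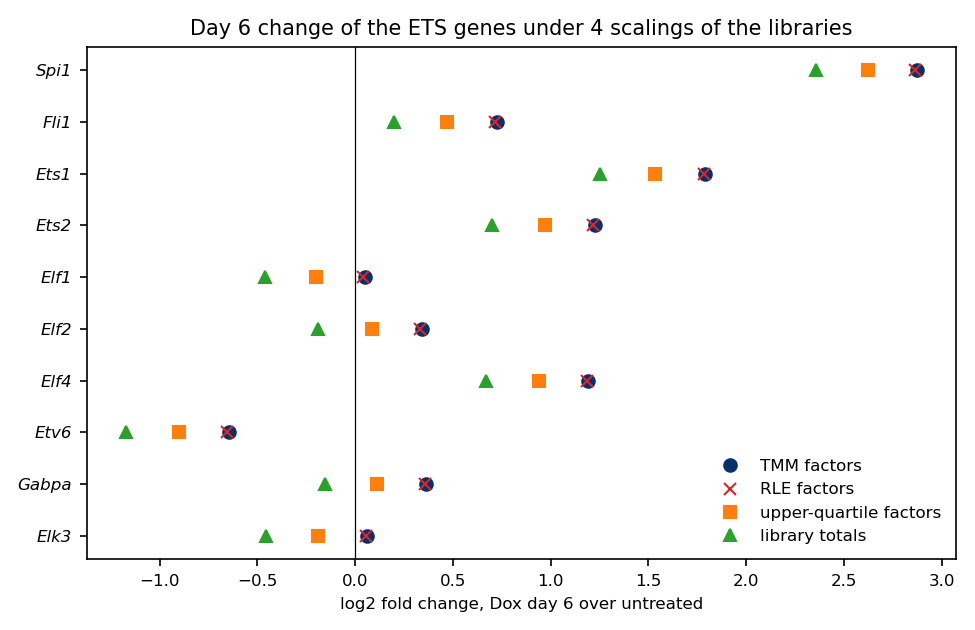
log2 fold change of each ETS gene at Dox day 6 over untreated under TMM, RLE, upper-quartile and library-total scaling. The genes keep their order while all points move left by about the same amount, so Elf1, Elf2, Gabpa and Elk3 cross 0 under library totals and Spi1, Ets1, Ets2, Elf4 and Etv6 keep their side.

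Per length, and independent of the scaling within a library, Spi1 became the leading ETS transcript. Its share of the summed reads per kilobase of the 27 ETS genes was 11.8%, 14.3% and 13.6% in untreated libraries, 21.9%, 19.9% and 23.4% in day 2 libraries, 37.6%, 39.0% and 39.6% in day 4 libraries and 41.6%, 45.2% and 38.5% in day 6 libraries. The groups up to day 4 did not overlap, while the day 4 and day 6 libraries did. The share of Etv6 was 15.7% ± 1.34 untreated, 11.2% ± 0.643 at day 2, 7.34% ± 0.553 at day 4 and 4.31% ± 0.378 at day 6 (SD, n = 3 each), with no overlap between neighbouring times. A share also falls when the sum of the 27 genes grows. From day 4 to day 6 the Etv6 log2 change was only -0.06 and was not called. Elf4, whose CPM rose, had a share of 7.70% ± 0.418 at day 6, against 7.82% ± 0.551 untreated, and the libraries overlapped. Ets1 had 9.30% ± 0.763 untreated, 7.92% ± 1.16 at day 2, 5.46% ± 0.717 at day 4 and 15.2%, 9.94% and 15.8% in the day 6 libraries. The day 6 share of Ets1 in replicate 2 lay within the untreated range. Elf1, whose CPM passed no test with TMM scaling, had 5.36% ± 1.04 at day 6, against 11.9% ± 1.44 untreated. Fli1, Elf2 and Gabpa, called higher at day 6 with TMM scaling, had lower shares there. Their shares were 6.82%, 4.89% and 3.37% at day 6, against 9.65%, 9.06% and 6.07% untreated. Ets2 had 2.84% at both times.

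The order of RPKM levels changed with the days. Untreated cells had Etv6 first at 55.5 ± 3.76 RPKM, then Spi1 at 46.9 ± 5.47 and Elf1 at 42.2 ± 4.68, whose libraries overlapped, and Ets2 last at 10.05 ± 0.616. Spi1 led at day 2 with 82.2 ± 9.01 RPKM, ahead of Etv6 with 42.3 ± 0.978, and at day 4 with 195 ± 10.6, ahead of Elf4 with 49.1 ± 4.14, in both cases without overlap. At day 6 Spi1 had 344 ± 25.4 RPKM, Ets1 114 ± 36.2 and Elf4 63.4 ± 4.37. Spi1 lay clear of Ets1 and Ets1 clear of Elf4, whereas Elf4, Fli1, Elf1, Elf2 and Etv6 overlapped each with its neighbour in the order. Elk3 was last at 17.6 ± 1.31 RPKM. The summed RPKM of the 27 genes was 354 ± 9.67 untreated, 378 ± 13.6 at day 2, 503 ± 14.4 at day 4 and 826 ± 87.4 at day 6, of which the 10 members held 90.0% to 93.5% in single libraries.

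**Figure D4:**
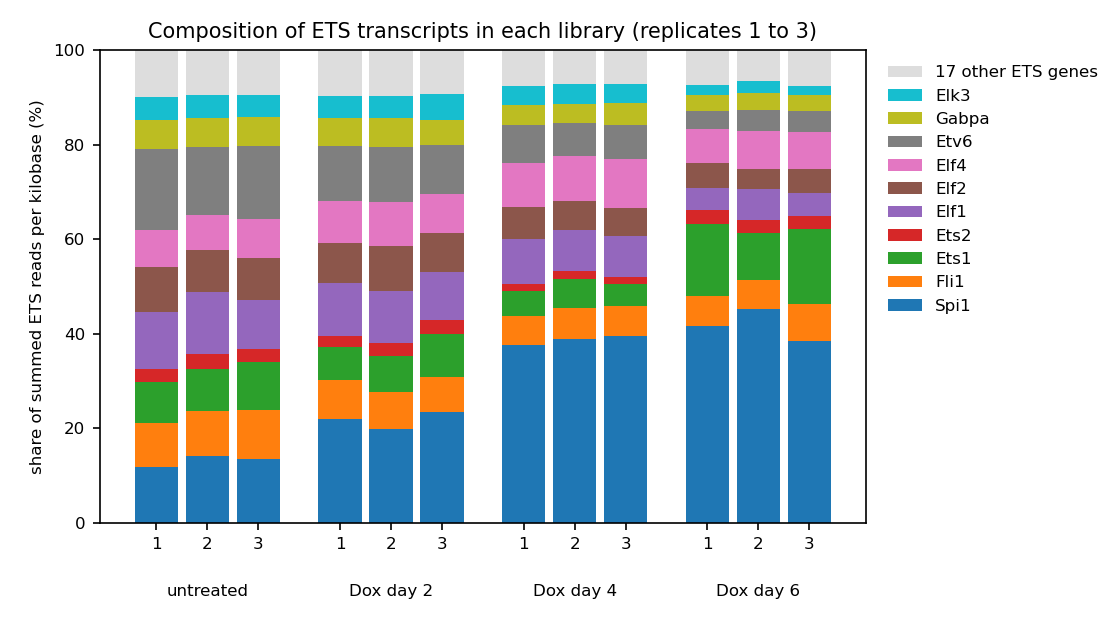
Share of each of the 10 ETS genes, and of the 17 others together in grey, in the summed ETS reads per kilobase of each library (%), stacked, with replicates 1 to 3 of each time side by side. Spi1 at the base takes 38.5% to 45.2% of the day 6 libraries, against 11.8% to 14.3% of the untreated ones, while the band of Etv6 in dark grey narrows.

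Among the 17 other ETS genes, 8 had enough counts for testing. At day 6 against untreated 4 were called higher (Erg, Elk1, Elk4, Etv3) and 4 lower (Elf5, Etv4, Etv5, Erf), where 35% and 32.9% of all genes were called. At day 4, 1 was higher (Etv3) and 3 lower (Elf5, Etv4, Etv5), where 22.1% and 20.2% of all genes were called. The Elf5 call at day 4 was lost in DESeq2 (adjusted p = 0.0550) and in 4 of 12 omissions of a library. At day 2, 0 were called by edgeR, DESeq2 or limma voom, and 1 was higher and 1 lower at an unadjusted p under 0.05 in edgeR. Erg, a blood stem cell factor close to Fli1 in sequence, was low up to day 4 and then rose. It had 5.39, 5.29 and 3.02 CPM untreated, 3.19, 3.48 and 9.96 CPM at day 2, 6.75, 6.71 and 3.08 CPM at day 4 and 76.3, 24.1 and 55.4 CPM at day 6. Every day 6 library exceeded the 9 others, and replicate 2 was again the lowest (log2 3.49 ± 0.52, adjusted p = 1.35e-04). Etv3, a repressor linked to growth arrest of macrophages, rose at day 4 (log2 0.43 ± 0.12, adjusted p = 0.00994; 0.31 and adjusted p = 0.0884 under library totals) and stood at 73.2 ± 11.3 CPM at day 6 against 52.5 ± 5.29 CPM untreated. Under library totals the day 6 changes of Etv3 and Elk4 became -0.02 and -0.04.

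Etv4 and Etv5, PEA3-group factors that report growth factor signalling, were low throughout and fell. Etv5 had 11.2, 11.7 and 6.75 CPM untreated, 5.01, 8.05 and 5.37 CPM at day 2, 2.25, 1.31 and 1.61 CPM at day 4 and 6.18, 4.34 and 5.27 CPM at day 6. It was therefore lowest at day 4, and its day 6 level was higher than at day 4 (log2 1.59 ± 0.33, quasi-likelihood adjusted p = 0.00207). Etv4 had 2 counts over the day 6 libraries, against 48 over the untreated ones, and Elf5, best known from epithelia, had 1 against 32, so both lay under 3 counts a library at day 6. The Elk1 rise (adjusted p = 0.0430) and the Erf fall (adjusted p = 0.0442) at day 6 overlapped with untreated libraries, and were lost in 9 and 10 of 12 omissions of a library. Without day 6 replicate 2 they were larger, at 0.81 and -1.12 on the log2 scale. The Elk4 rise (0.48 ± 0.15, adjusted p = 0.0130) was lost without day 6 replicate 3 (0.25, adjusted p = 0.0701). Spib and Spic, the nearest relatives of Spi1, had 48 and 46 counts over all 12 libraries and were not tested. Etv1 had 22, Etv3l 5, Ehf 2 and Elf3 1, while Fev, Etv2 and Spdef had 0.

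**Figure D5:**
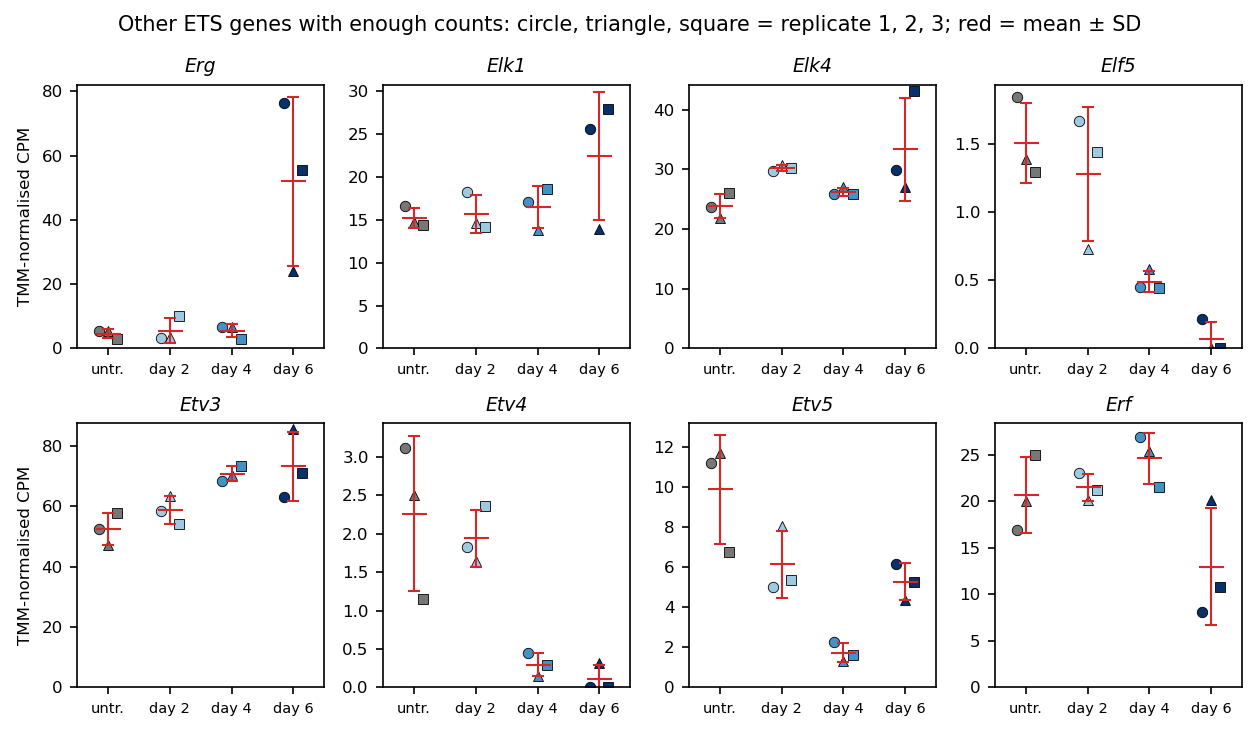
Level of the 8 other tested ETS genes in TMM-normalised CPM in the 12 libraries, by time on Dox, with the mean ± SD of each group in red. Erg is at 3.02 to 9.96 CPM up to day 4 and at 24.1 to 76.3 CPM at day 6, Etv5 is lowest at day 4, and Elf5 and Etv4 approach 0.

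Among 9211 tested and named genes of at least 10 CPM on average, the 5 whose log2 changes at days 2, 4 and 6 were nearest to those of Spi1 were Ms4a3, Itgal, Fes, Rp2 and Man1c1. Likeness is the root mean square difference over the 3 days, computed from the means of the same 12 libraries, and carries no test. Ms4a3, a membrane protein of granulocyte progenitors, differed by 0.05 and had 65.7, 121, 265 and 489 CPM at the 4 times. Itgal, the integrin alpha chain of LFA-1, differed by 0.11, Fes, a myeloid tyrosine kinase, by 0.13, Rp2 by 0.14 and Man1c1 by 0.15. Nearest to the other members were Cdk17 to Fli1 (0.03), Cxadr to Ets1 (0.14), Mpp7 to Ets2 (0.05), Gm2423 to Elf1 (0.01), Ptpn9 to Elf2 (0.01), Zswim8 to Elf4 (0.02), Hscb to Etv6 (0.04), Nkap to Gabpa (0.01) and Zfp106 to Elk3 (0.02). Within the 10 members the nearest pair was Elf2 and Gabpa (0.03), and Spi1 was farthest from Etv6 (2.63). The member nearest to Spi1 was Elf4, at 1.24.

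Most of the myeloid genes known as PU.1 targets had risen by day 4. Of 39 tested, edgeR called 7 higher at day 2, 34 at day 4 and 32 at day 6 against untreated, and called 0, 1 and 3 lower on those days. Of all tested genes 1.05%, 22.1% and 35% were called higher and 0.406%, 20.2% and 32.9% lower. Their median log2 changes were 0.49, 1.72 and 2.77, beside -0.0038, -0.015 and -0.00029 for all tested genes. At day 2, 19 were higher and 1 lower at an unadjusted p under 0.05, DESeq2 called 15 and 1, and limma voom 8 and 0. The largest rises at day 6 were those of Fcgr1, the high-affinity IgG receptor (253 ± 226 CPM against 2.48 ± 2.44 CPM untreated), Itgam, the alpha chain of Mac-1 (2276 ± 734 against 28.7 ± 13.6 CPM), and Pirb, an inhibitory immunoglobulin-like receptor (244 ± 41.2 against 3.72 ± 0.879 CPM). Omission of 1 library put the Fcgr1 log2 change of 6.66 between 5.61, without day 6 replicate 2, and 7.86, without untreated replicate 2, beside 6.30 for Itgam and 6.03 for Pirb in the full set. The 3 targets that fell were the primary granule genes Mpo (4170 ± 425 CPM at day 6 against 18038 ± 1186 CPM untreated), Elane (2212 ± 541 against 5072 ± 528 CPM) and Prtn3 (999.9 ± 76.2 against 1877 ± 371 CPM). These 3 also stand among the blast markers, and Csf1r, Fcgr1, Adgre1 and Cd68 among the monocyte markers, whose sums are given above. Their part in the target counts was not tested.

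The 12 tested GABP targets serve mitochondrial gene expression and cytochrome c oxidase. Of these, 0 were higher at any day against untreated by edgeR, DESeq2 or limma voom, or at an unadjusted p under 0.05 in edgeR. Of all tested genes, edgeR called 1.05%, 22.1% and 35% higher at days 2, 4 and 6. Of the 12 targets edgeR called 0, 2 and 5 lower on those days. These called counts lie near the 0.406%, 20.2% and 32.9% of all genes called lower. At an unadjusted p under 0.05 in edgeR, 1 target was lower at day 2 and 5 at day 4. Limma voom called 4 lower at day 4. The median log2 change of the targets at day 6 was -0.19. Tfb2m (log2 -1.05), Tfb1m (-0.84) and Cox8a (-0.70) had the largest falls at day 6. Of 7 tested targets of ternary complex factors, the group of Elk1, Elk3 and Elk4, 4 were called higher (3 by limma voom) and 1 lower at day 6, where 35% and 32.9% of all genes were called. Their median log2 change was 0.57. Mcl1, a survival protein, rose (1000.2 ± 126 CPM against 334 ± 32.0 CPM untreated), as did Ier2 (log2 0.69, but 0.17 and adjusted p = 0.192 under library totals) and Egr1 (1.57), while Srf, the partner of these factors, fell (-0.38, adjusted p = 0.00184). The Egr1 call (adjusted p = 0.0468) was lost in 7 of 12 omissions of a library and in 7 of 10 other settings, among them limma voom (adjusted p = 0.113), upper-quartile factors (0.0836) and library totals (0.153).

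Of 13 tested partner factors of ETS proteins, 4 were called higher and 5 lower at day 6, where 35% and 32.9% of all genes were called. At day 4, 1 was called higher and 2 lower, where 22.1% and 20.2% of all genes were called. At day 2 edgeR and limma voom called 0 and DESeq2 1 lower, as did an unadjusted p under 0.05 in edgeR. Sp1 (306 ± 36.5 CPM at day 6 against 215 ± 12.7 CPM untreated), Cbfb, the partner of RUNX1 (223 ± 10.01 against 164 ± 7.21 CPM), and Lmo2 (186 ± 13.6 against 139 ± 7.86 CPM) had the largest rises. Under library totals these 3 had changes of -0.02, -0.07 and -0.10. Gata2, a stem cell factor (1.03 ± 0.405 CPM at day 6 against 8.38 ± 3.54 CPM untreated), Irf8, the monocyte factor that binds beside PU.1 (145 ± 77.3 against 710.5 ± 228 CPM), and Myb (249 ± 55.1 against 718 ± 35.4 CPM) had the largest falls.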

How the data were processed

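RNA of sorted AML246 cells was sequenced in 12 libraries. The authors deposited raw read counts per Entrez gene, not normalised, with an exon length for each gene. The submitters' processing notes list the build mm10, featureCounts, limma 3.22.0, edgeR 3.8.2 and CASAVA 1.8.2. Aligner and strandedness were not given in the sources used here. RefSeq named 25275 identifiers and GENCODE 18, and 1886 stayed unnamed. Here edgeR 4.0.16 (R 4.3.3) was run with filterByExpr, TMM factors and a robust quasi-likelihood fit of all 12 libraries by group. Tests were two-sided, with Benjamini-Hochberg adjustment over 12057 genes and a threshold of 0.05. CPM and RPKM use the filtered library sizes and TMM factors. The alternatives were DESeq2 1.42.0, limma 3.58.1 voom, 3 other scalings, 2 other filters, a 1.5-fold threshold, separate fits of each pair of groups, a replicate block and the omission of each library. The procedure was tested on simulated data. Members, lists and tests were chosen with earlier results of these data known. Genes were named if they are members, tested ETS genes, nearest in course to a member or overlapping one, or among up to 3 rises and 3 falls of each list at day 6.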

Additional observations from a re-analysis of the deposited data

How the results depend on the processing

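Against TMM, upper-quartile factors and library totals moved the median log2 change of all genes at day 6 by -0.25 and -0.52. With them, in that order, Elf1 had -0.20 and -0.46 and Elk3 -0.19 and -0.45 at day 6 against untreated, and at day 4 Elf1 had -0.00100 and -0.025 and Gabpa -0.084 and -0.11. None of these 4 had been called with TMM. Library totals also turned the sign of changes that TMM called, giving Elf2 -0.19, Gabpa -0.16, Elk4 -0.044, Etv3 -0.024, Cbfb -0.074, Lmo2 -0.098 and Sp1 -0.019 at day 6 against untreated, and Elf2 -0.047, Elf4 -0.038 and Gabpa -0.048 at day 6 against day 4. Fli1, not called, had -0.053 at day 4 against day 2. Ets2 at day 2, not called, had -0.0053 with DESeq2, -0.00040 with limma voom, -0.0057 with RLE factors, -0.0068 with upper-quartile factors, -0.0020 with the stricter filter and -0.0011 with the replicate block. Omissions of 1 library changed the sign only of changes that were not called. Their ranges at day 2 were -0.082 to 0.074 for Ets2, -0.13 to 0.033 for Elf1, -0.013 to 0.088 for Elf2 and -0.0094 to 0.069 for Gabpa. At day 4 they were -0.055 to 0.0038 for Elf2 and -0.068 to 0.062 for Gabpa, and at day 6 -0.025 to 0.14 for Elf1. For day 4 against day 2 they were -0.24 to 0.025 for Ets1 and -0.093 to 0.034 for Gabpa, and for day 6 against day 4 -0.13 to 0.0019 for Etv6.

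Genes called at day 2 numbered 175, and 424 with DESeq2, 412 in a fit of only these groups and 11 with the 1.5-fold threshold. Omissions gave 38 to 603, with 38 and 48 without day 2 replicate 2 and 1, 52 and 103 without untreated replicate 1 and 3, and 603 without day 6 replicate 2. The 1.5-fold threshold called 1491 genes at day 4, 4383 at day 6, 615 for day 4 against day 2 and 1593 for day 6 against day 4. Omissions gave 1876 to 4193 for day 4 against day 2, lowest without day 4 replicate 2 or 3 (1889) or day 2 replicate 1 (2015). Of the members, the 1.5-fold threshold called 0 higher and 0 lower at day 2, 0 lower at day 4, 4 higher and 0 lower at day 6, 1 higher for day 4 against day 2 and 3 higher for day 6 against day 4. The 1 lower at day 2, Etv6, became 0 with library totals, without a filter and with the replicate block (quasi-likelihood adjusted p = 0.0665), and 0 to 1 under omissions. The 2 lower at day 4 became 1 with the block, which lost Ets2 (adjusted p = 0.0538), and 1 to 2 under omissions. At day 6 library totals gave 4 higher and 3 lower. For day 4 against day 2, 2 were lower with upper-quartile factors, library totals or a fit of only these groups, 1 with the stricter filter and 0 to 1 under omissions. For day 6 against day 4, upper-quartile factors gave 4 higher and 1 lower, library totals 4 and 3, and omissions 0 to 1 lower. Beyond these, the block changed 1 call of a named gene, Egr1 at day 6 (adjusted p = 0.053). No pairing of the samples by replicate number was seen, though 3 libraries a group cannot exclude one. Residuals of same-numbered libraries had a mean correlation of 0.0057 over 18 pairs (-0.17 to 0.29). Of the 12 libraries, 4 correlated best with their own number.

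The Spi1 share was 14.6%, 24.0% and 41.8% untreated, at day 2 and at day 4 when set against the 10 members alone, and 4.42%, 7.79%, 15.9% and 18.0% at the 4 times from counts not divided by length. Of 1903 recomputed log2 changes, 1717 kept their direction and side of the threshold, 132 lost the call, 14 gained it and 40 changed sign. The cause of these shifts was not tested. At these depths 3 counts are at most 0.610 CPM, which limits Elf5, Etv4 and the untested ETS genes.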
